A study of Mus musculus with 1 sample.

Results

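Actin filaments and the myosin motors that pull on them give a cell its shape, its grip on neighbours and its capacity to contract. Cells build this machinery from gene families whose members are divided between tissues: cytoplasmic actins and non-muscle myosin II serve most cells, smooth muscle has its own actins, heavy chain and thin-filament proteins, and skeletal and cardiac muscle use sarcomeric isoforms together with troponin, which smooth muscle lacks. The ovarian surface epithelium is a simple mesothelial-type layer that moves and is remodelled when ovulation opens the ovary wall and the wound is closed.

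The genes described here are the actins, alpha-actinins, filamins, tropomyosins, calponins, transgelins, caldesmon, troponins, tropomodulins, leiomodins, beta-thymosins, myosin heavy and light chains, myosin light chain kinases and unconventional myosins. They were selected by a pattern of gene symbols and comprised 85 of the 18193 genes with a probe set assigned to a single symbol. On the array they had 167 probe sets of 34958, and 3 of these were control probe sets for Actb, described separately. All 85 genes matched the mouse reference gene table by gene number. Myo6, Myo10 and Myh7b have symbols outside the pattern and were not counted.

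The RNA came from the ovarian surface epithelium of wild-type mice at an age of 3 months, and no treatment is named. The series compared 3 genotypes, of which the wild type was analysed here, with 1 array. There is therefore no replicate error, no test and no comparison between groups. The sources used here do not give the strain, the number of animals pooled or the way the cells were collected. An intensity is in arbitrary units and depends on the affinity of its probes as well as on the amount of transcript. Genes were therefore not ranked by amount of transcript, and medians and counts of genes past an intensity are given as descriptions. In a bulk sample, fewer cells of a type and less RNA per cell cannot be told apart.

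All 11 surface epithelial and mesothelial markers were above the background limit, among them Upk3b, Krt7 and Wt1. This limit, 46.5 in intensity units and 5.54 as log2, marks the 95th percentile among 126 probe sets of chemosensory receptor and keratin-associated protein genes. All 7 fibroblast markers and all 5 macrophage markers also exceeded it, against 1 of 6 endothelial and 2 of 5 neuronal markers. The macrophage marker Adgre1 passed it only narrowly, at 47, and 62.8% of all named genes were above it. Over the genes of each list, the brightest probe set ranged from 663 to 20836 for surface epithelial markers. It ranged from 307 to 29972 for fibroblast markers and from 47 to 527 for macrophage markers. The control probe sets for Actb had intensities of 16073 at the 5′ end, 16886 in the middle and 24792 at the 3′ end of the transcript. Those for Gapdh, a glycolytic enzyme, had 21516, 20490 and 20207 in the same order.

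As a whole, the contractile and cytoskeletal genes were above background about as often as other genes, but their isoform classes were divided. On the brightest probe set of each gene, 54 of 85 (63.5%) exceeded the limit, against 62.8% of all named genes. All 20 measured genes of the non-muscle class and all 10 of the smooth muscle class passed it. Of 31 measured striated muscle genes 13 (41.9%) passed, and so did 11 of 19 unconventional myosins (57.9%). Genes with more probe sets passed more often, at 47.3% of all named genes with 1 probe set and 90.2% with 4 or more. Most striated genes had a single probe set and most non-muscle genes had several. The classes were not matched for this number, so 62.8% is not an equal baseline for each. The remaining 5 genes, which have no place in these classes, were below it. The classes were chosen with earlier results of these data known, and the split between them is given as a description. The median level was 12.89 on the log2 scale for the non-muscle class and 12.64 for the smooth muscle class. It was 4.86 for the striated class, which lies under the limit, beside 7.29 over all 85 genes and 7.06 over all named genes. Since probes differ in affinity, these medians are given as a description.

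**Figure D1:**
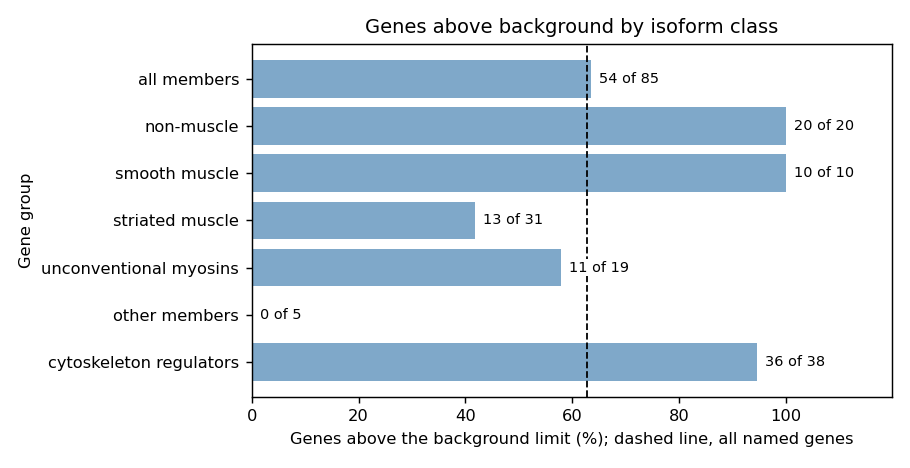
Horizontal bars give the percentage of measured genes in each class whose brightest probe set exceeded the background limit, with the counts at the bar ends, and the dashed line marks the 62.8% of all named genes. The non-muscle and smooth muscle bars reach 100%, and the striated muscle bar ends at 41.9%. The classes differ in the number of probe sets per gene and were not matched for it. The classes were chosen with earlier results of these data known.

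Bright probe sets were frequent in this machinery. An intensity of 10000 or more, a threshold chosen after the values were seen, was reached by 13 of the 85 genes (15.3%) and by 0.781% of all named genes. These 13 were Actb, Actg1, Cald1, Cnn3, Myh10, Myl12a, Tmsb10, Tmsb4x and Tpm4 of the non-muscle class and Acta2, Tagln, Tpm1 and Tpm2 of the smooth muscle class. None belonged to the striated class or to the unconventional myosins. For Acta2, Actb, Actg1, Cald1, Cnn3, Tmsb10 and Tpm2, only probe sets with identifiers of the kind that can match several transcripts reached the threshold. The shares were not recomputed without such probe sets.

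Promoters of these genes are shown because a DNA element known from muscle and actin genes, the CArG box, occurred in several of them. The CArG box is bound by serum response factor (Srf), which works with the cofactors Mrtfa and Mrtfb, themselves regulated by free actin, and in smooth muscle with Myocd. RefSeq promoters of assembly GRCm38.p6, from 250 bases before to 50 after the start of transcription, were held for 71 of the 85 genes. The genes without one were Actb, Actg2, Actn3, Lmod3, Myh11, Mylk2, Myo18b, Myo1d, Myo5b, Myo7b, Tagln, Tmod3, Tnni2 and Tnnt3. Both strands were searched for CC, 6 bases of A or T, and GG. The box was found in the promoters of 10 of these 71 genes (14.1%), in 1.58% of the 14452 named array genes with a promoter and in 1.81% of all 27025 genes of the promoter table. It lay in 9 of 45 genes above background and in 1 of 26 at background, while the shares over all named genes were 1.64% and 1.49%. That split changed with a higher limit of 84.8, the 99th percentile of background. Acta1, Actc1 and Myl3 fell below, and the box lay in 6 of 37 genes above and 4 of 34 not above. The shares over all named genes were not computed at that limit. By class, the box lay in 5 of 26 striated genes (19.2%), 3 of 18 non-muscle genes (16.7%), 1 of 7 smooth muscle genes (14.3%) and 1 of 15 unconventional myosins (6.67%). The windows below, with the box in capitals, are from the cytoplasmic actin Actg1, the striated actins Acta1 and Actc1, 3 myosin light chains of different classes and Myh4, the only one of the 10 under the limit of 46.5.
Actg1, chr11:120348561-120348600, minus strand: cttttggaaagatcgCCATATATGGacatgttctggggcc
Acta1, chr8:123894824-123894863, minus strand: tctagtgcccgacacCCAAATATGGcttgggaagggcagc
Actc1, chr2:114052898-114052937, minus strand: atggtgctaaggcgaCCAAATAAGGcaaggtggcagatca
Myl9, chr2:156775288-156775327, plus strand: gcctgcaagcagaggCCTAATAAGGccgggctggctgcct
Myl6, chr10:128493035-128493074, minus strand: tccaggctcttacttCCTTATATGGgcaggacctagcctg
Myl7, chr11:5898819-5898858, minus strand: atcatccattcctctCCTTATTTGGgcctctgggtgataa
Myh4, chr11:67237693-67237732, plus strand: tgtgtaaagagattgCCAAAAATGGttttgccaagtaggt

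The box began 90 bases before the start of Actg1, 73 before Acta1, 47 before Actc1 and 161 before Myl9. The other 3 genes with a box were Cnn2, Myl3 and Myo1e. Acta2, the smooth muscle actin, had no box of this strict form, but 2 in which a single base of the central 6 was G or C, a form searched after the strict one was read. Such imperfect boxes were found in 9 of the 71 genes (12.7%) and in 9.33% of named array genes.
Acta2, chr19:34255433-34255472, minus strand: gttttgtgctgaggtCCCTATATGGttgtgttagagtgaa
Acta2, chr19:34255383-34255422, minus strand: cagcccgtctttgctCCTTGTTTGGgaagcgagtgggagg

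The letters TATAAA, the core of the TATA box that positions the polymerase, were found on either strand in 14 of the 71 genes (19.7%) and in 11.5% of named array genes. Of the genes at background 9 of 26 (34.6%) held it, and of those above background 5 of 45 (11.1%). Over all named genes the shares were 16.6% and 8.62%. At the limit of 84.8 the counts were 11 of 34 not above and 3 of 37 above, and the shares over all named genes were not computed there. By class, 11 of 26 striated genes (42.3%) and 2 of 18 non-muscle genes (11.1%) held the letters. So did 0 of 7 smooth muscle genes and 1 of 15 unconventional myosins (6.67%). The side of the limit was not separated from the isoform class. The 9 under the limit of 46.5 were the heavy chains Myh1, Myh2, Myh3, Myh4, Myh6 and Myh8, the light chains Myl1 and Myl2, and Myo5c. The search set no position, and in these 9 genes the letters began from 236 bases before the start, in Myo5c, to 10 after it, in Myh2. Myh4 held them 213 bases before the start, 179 before it on the opposite strand, and 31 before it. The last of these is shown here, in capitals. Whether any of the matches works as a TATA box was not tested.
Myh4, chr11:67237766-67237801, plus strand: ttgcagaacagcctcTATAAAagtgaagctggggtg

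The actins were all above background, at very different distances from the limit. Actb, cytoplasmic beta-actin, had intensities of 9769 and 24340. Actg1, cytoplasmic gamma-actin, had 19889. Acta2 had 23141, 327 and 23, and the lowest of these was under the limit. Its probe sets spanned 9.97 on the log2 scale, so a statement on Acta2 rests on its brightest probe set. Actg2, the gamma-actin of visceral smooth muscle, had 2168. Acta1 and Actc1, the actins of skeletal and cardiac muscle, had 75 and 69, within 0.69 and 0.57 of the limit on the log2 scale. Actin transcripts are alike in their coding part. The brightest probe sets of Acta1, Acta2, Actb, Actg1 and Actg2 carry identifiers of the kind that can match several transcripts, and that of Actc1 does not. The contribution of cross-hybridisation between actins was not tested.

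Tropomyosins, which lie along the actin filament and set which myosins may bind it, were all above background. Tpm1 had 17, 130, 8950 and 11191, and Tpm2 had 46, 91, 6776 and 10390. Tpm3 had 27, 53, 427, 710 and 4641. Tpm4 had a single probe set, at 10736. For Tpm1, Tpm2 and Tpm3 the lowest probe set was under the limit.

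The calponins and transgelins, small actin-binding proteins, included members of both the smooth muscle and the non-muscle class. Cnn1, the calponin of differentiated smooth muscle, had 3985, and Cnn2, a calponin of many cell types, had 3112. Cnn3, acidic calponin, had 6 probe sets from 1007 through a median of 6065.5 to 13251, all above the limit. Tagln, the smooth muscle transgelin, had 22357. Tagln2, found in many cell types, had 14, 2402 and 2707. Tagln3, the neuronal member, had 26 and was below the limit. Cald1, caldesmon, which restrains myosin on the thin filament, had 34, 101, 1755, 3941 and 14091.

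Cross-linkers of actin filaments were present in non-muscle form, and in part in striated form. Actn1 and Actn4, the alpha-actinins of adhesions and stress fibres, differed in probe set number. Actn1 had 391, 1144 and 7261, and Actn4 had 6273. Actn2, a Z-disc protein of heart and skeletal muscle, had 20 and was below the limit. Actn3, the alpha-actinin of fast skeletal fibres, had 1334, a log2 difference of 4.84 from the limit. Flna, the widespread filamin, had 4616, and Flnc, the filamin of striated muscle, had 943 and 1668.

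Proteins that hold or cap actin included the beta-thymosins, both above the limit, and the tropomodulins, of which 2 of 4 were. Of all named genes 62.8% were above it. Tmsb4x, which sequesters actin monomers, had 25353. Tmsb10, its close relative, had 19, 35, 2308, 6783 and 24897, the widest span of all these genes at 10.36 on the log2 scale. Tmod3, the widely expressed cap of the pointed filament end, had 10, 25, 73, 118 and 486. Tmod1, the tropomodulin of red cells and striated muscle, had 71. Tmod2, a neuronal member, and Tmod4, of skeletal muscle, were below the limit, at most 22 over 6 probe sets and 21. Lmod1, the smooth muscle leiomodin, a nucleator of actin filaments, had 507, while the striated muscle leiomodins Lmod2 and Lmod3 had 13 and 11.

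Of the troponin genes 5 of 8 (62.5%) were above the limit, near the 62.8% of all named genes. Troponin makes thin filaments of striated muscle sensitive to calcium. Of the slow skeletal forms, Tnnt1, which binds tropomyosin, had 520, and Tnni1, the inhibitory subunit, had 378. Tnni3, the cardiac inhibitory subunit, had 128, Tnnc1, the calcium-binding subunit of heart and slow muscle, had 74, and Tnnt2, of heart, had 26, 60 and 62. The fast skeletal forms Tnnc2, Tnni2 and Tnnt3 were below it, with brightest intensities of 22, 31 and 16.

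**Figure D2:**
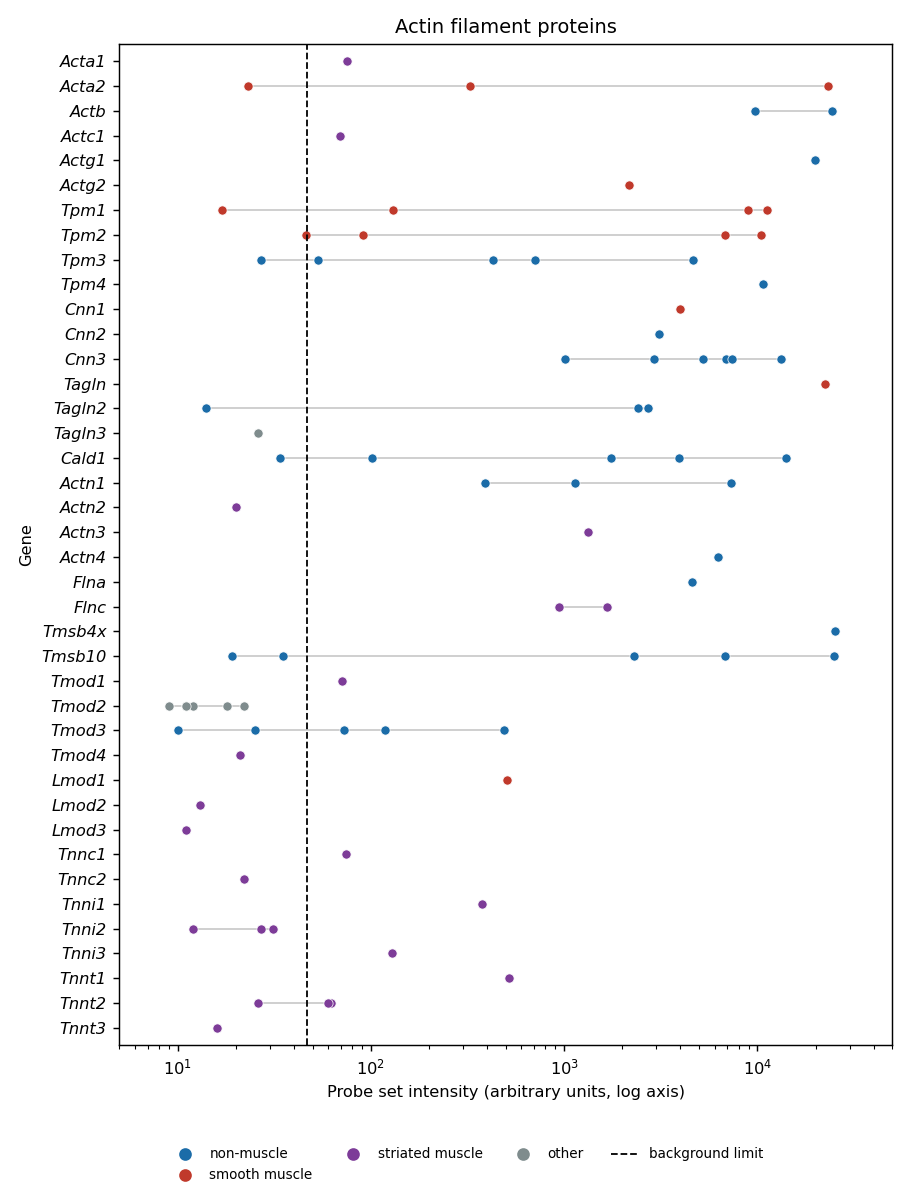
Each point is the intensity of 1 probe set (log axis, arbitrary units) for a gene of the actin filament, grey lines join the probe sets of a gene, colours give the isoform class and the dashed line is the background limit of 46.5. Points of the non-muscle and smooth muscle classes reach 25353, whereas those of the striated class end at 1668, and the probe sets of Acta2, Tmsb10 and Tpm1 lie on both sides of the limit.

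Among heavy chains of class II myosin, the filament-forming motors, 4 of 11 (36.4%) were above background, against 62.8% of all named genes. Myh9, the heavy chain of non-muscle myosin IIA, had 45, 977, 1826, 3530 and 7923. Myh10, of myosin IIB, had 56 and 10070, and Myh14, of myosin IIC, had 76. Myh11, the smooth muscle heavy chain, had 21 and 764. The 7 striated heavy chains were all below the limit on every probe set. Of the skeletal and developmental forms, Myh1 had 9, 10 and 15, Myh2 had 18, Myh4 had 11 and 12, and Myh3 and Myh8 had 17 each. Of the cardiac forms, Myh6 had 8 and 11 and Myh7 had 15. A pair of probe sets shared by Myh6 and Myh7, outside the single-symbol rule, had 12 and 25.

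Of the light chains, which sit on the myosin neck, 6 of 11 (54.5%) were above background, against 62.8% of all named genes. Myl9, the regulatory chain of smooth muscle, had 9447. Myl12a had 566 and 17638, and Myl12b had 39 and 7304; both are regulatory chains of non-muscle myosin. Myl6, the essential chain of smooth muscle and non-muscle myosin, had 431 on its own probe set. Of the striated light chains, Myl7, the regulatory chain of the cardiac atrium, had 466. Myl3, a cardiac ventricular chain, had 18, 27 and 47, and its place above the limit rests on 0.02 on the log2 scale. Myl1, Myl2, Myl4, Myl6b and Myl10 were below the limit, with brightest intensities from 13 to 43.

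Myosin light chain kinases phosphorylate the regulatory chain and so start contraction of smooth muscle and non-muscle myosin. Mylk, the kinase of smooth muscle and non-muscle cells, had 82, 3848 and 4303. Mylk3, the cardiac kinase, had 542. Mylk2, the skeletal muscle kinase, and Mylk4 were below the limit at 29 and 13.

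**Figure D3:**
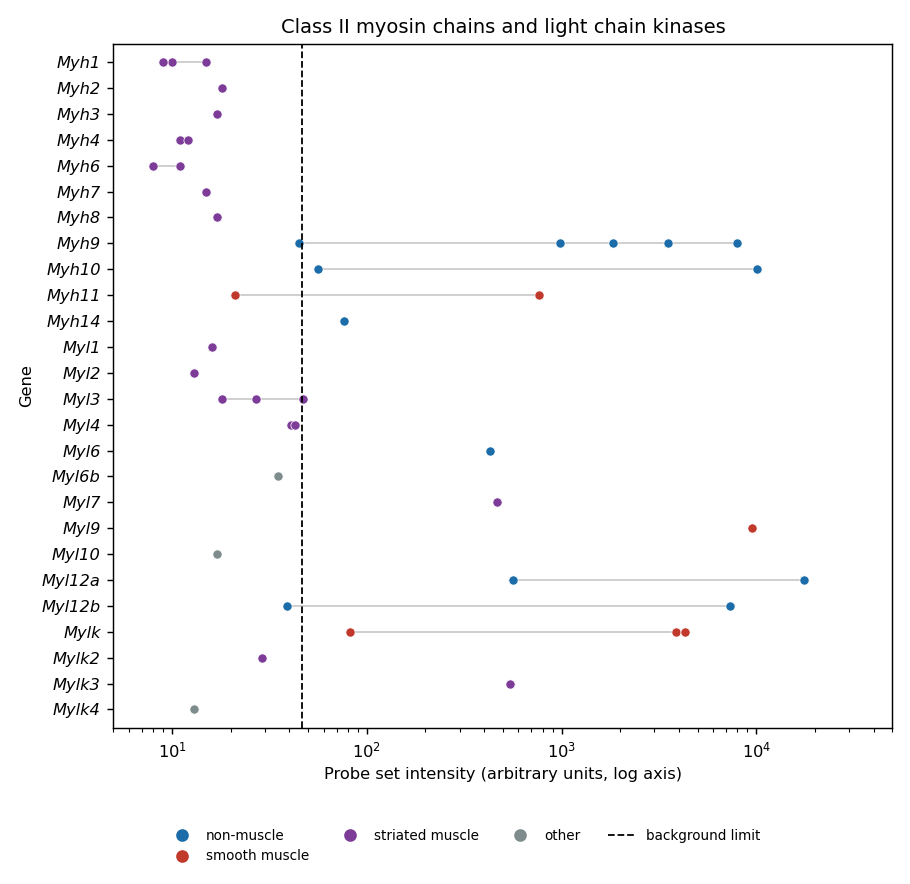
Each point is the intensity of 1 probe set (log axis, arbitrary units) for a class II myosin heavy chain, light chain or light chain kinase, with grey lines joining the probe sets of a gene, colours for the isoform class and a dashed line at the background limit of 46.5. The striated heavy chains lie between 8 and 18, left of the limit, while Myl7 and Mylk3 stand at 466 and 542.

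Within the striated class the genes above background were therefore not heavy chains. All 7 measured heavy chains were below the limit, and 13 of the other 24 striated genes (54.2%) were above it. With the limit raised to the 99th percentile of background, 84.8, the class had 7 of 31 genes (22.6%) above it, against 55.3% of all named genes: Actn3, Flnc, Myl7, Mylk3, Tnni1, Tnni3 and Tnnt1. Acta1, Actc1, Myl3, Tmod1, Tnnc1 and Tnnt2 had passed only the lower limit. Among 16 other markers of skeletal and cardiac muscle 5 (31.2%) were above the limit of 46.5, against 62.8% of all named genes. Their brightest probe sets were at 133 for Mybpc3, 68 for Mybpc2, 63 for Ckm, 56 for Myoz1 and 49 for Mb. The giant sarcomere proteins Ttn and Neb had at most 18 and 10, and the muscle regulators Myod1 and Myog had at most 16 and 18. The part of muscle cells in the 7 values was not tested.

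On the brightest probe set all 10 genes of the smooth muscle class were above background. On the lowest probe set 6 of 10 were, with Acta2, Myh11, Tpm1 and Tpm2 below. Not every gene of the class is particular to smooth muscle. Mylk, for example, also serves non-muscle cells. Genes were placed in the class by symbol, and the values of Tpm1 and Tpm2 were not separated by transcript form. Other markers of smooth muscle and pericytes were above the limit in 8 of 12 cases (66.7%), near the 62.8% of all named genes. Des, the intermediate filament protein desmin, had 22 and 4105, and Smtn, the actin-binding smoothelin, had 1025. The brightest probe set had 537 for Mcam, 209 for Pdgfrb, 131 for Itga8, 120 for Cspg4, 87 for Synpo2 and 69 for Notch3. The other 4 were below the limit. Rgs5, a pericyte signalling regulator, had at most 16 over 4 probe sets. Kcnmb1, a channel subunit of smooth muscle, had at most 20, Abcc9, a subunit of potassium channels in mural cells, had at most 18, and Synm, an intermediate filament protein, had at most 18. Whether the 10 genes of the class were transcribed in surface cells, in stroma or in mural cells was not tested.

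Regulators of actin and myosin, none of which belong to the families above, were mostly above background, with 36 of 38 measured genes (94.7%) over the limit. The share over all named genes was 62.8%. The list holds well-studied and widely expressed genes. Most of them had several probe sets, and of all named genes 75.5% with 2 or 3 probe sets and 90.2% with 4 or more were above the limit. Srf had 248 and 375, Mrtfa had 381 and Mrtfb had 21, 25 and 1132. Myocd, the smooth and cardiac muscle cofactor of Srf, had 15 and 17, and was 1 of the 2 below the limit. Rhoa, the switch that activates contraction, had 9, 3336 and 3795. Its effector kinase Rock1 had 17, 50, 718, 777 and 1644. Ppp1r12a, the targeting subunit of myosin phosphatase, had 96, 390, 715 and 1383, and Ppp1r12b, its relative in striated and smooth muscle, had 15, 30, 38 and 1162. Ppp1r14a, an inhibitor of that phosphatase in smooth muscle, had 22 and was the other gene below the limit. Rock2 and Actr2 were not analysed here.

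Unconventional myosins carry cargo or tether membranes to actin and do not form filaments. Of 7 class I genes, 4 were above the limit, and of all 19 unconventional myosins 11 (57.9%), beside 62.8% of all named genes. Myo1c, a motor of the cell cortex, had 270, 318, 1239 and 4144, and Myo1d had 139 and 1372. Myo1e had 36, 48, 56 and 156, and Myo1f, a motor of leukocytes, had 13, 32 and 54. Myo1a, of the intestinal brush border, Myo1g, of leukocytes, and Myo1h were below it, at 19, 21 and 46, the last of them 0.02 under the limit on the log2 scale.

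The transport myosins of class V were represented by Myo5a, at 134, 136 and 322, and Myo5b, at 27, 115 and 350, while Myo5c had 11 and 13. Of class IX, Myo9a had 103 and 126 and Myo9b had 27, 39 and 876. Myo18a had 1305, and its muscle relative Myo18b had 20. Myo7a, known from sensory hair cells, had 516, and Myo7b, of the brush border, had 55, close to the limit. Myo3a and Myo3b had 20 and 12, and Myo15b had 14 and 43. Of 5 other markers of inner ear and brush border, Espn had 68 and the rest, among them Vil1 at 14, were below the limit.

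**Figure D4:**
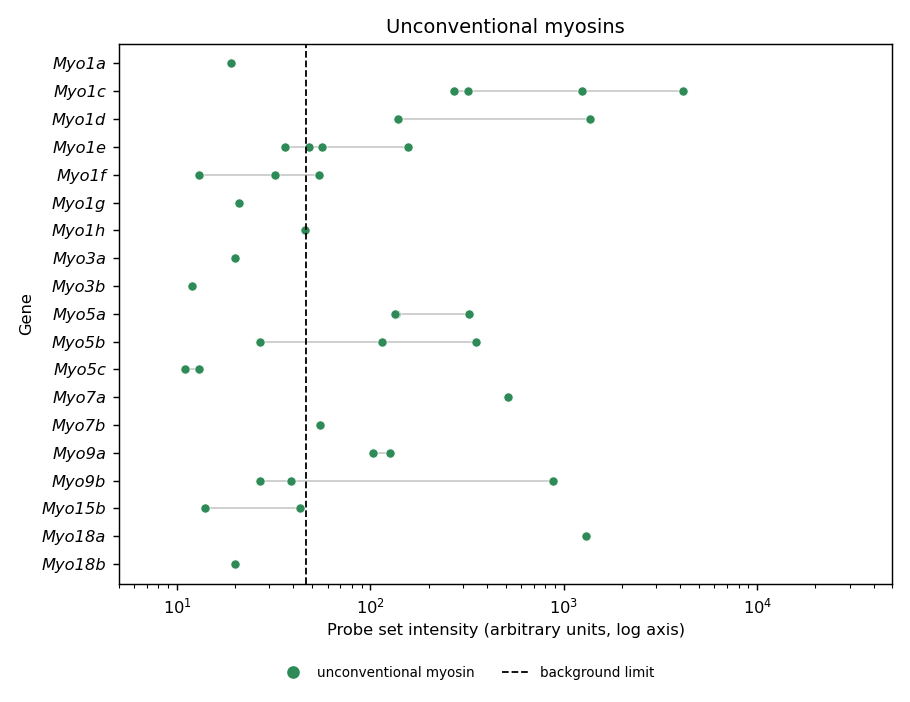
Each point is the intensity of 1 probe set (log axis, arbitrary units) for an unconventional myosin, with grey lines joining the probe sets of a gene and a dashed line at the background limit of 46.5. The brightest probe sets of Myo1c, Myo1d and Myo18a stand at 4144, 1372 and 1305, and Myo1h, Myo7b, Myo1f and Myo15b end within 0.24 of the limit on the log2 scale.

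Probe sets of a gene differ in the part of the transcript they read, so their spread does not stand for replicate error. Among the 36 genes with several probe sets the median SD between them was 1.85 on the log2 scale, against 1.39 for the 9010 such genes of the array. The limit passed between the probe sets of 17 genes, while 11 genes had all of theirs above it and 8 had none. For the 9010 genes of the array these counts were 4204, 2888 and 1918, which are similar shares. Over single probe sets, 97 of 164 (59.1%) were above the limit, against 55.1% of all named probe sets. The number of probe sets moved with these shares. Of the 49 genes with 1 probe set 53.1% were above background, against 47.3% of such genes on the array. With 2 or 3 probe sets the shares were 72.0% and 75.5%, and with 4 or more 90.9% and 90.2%. These shares were not split by isoform class.

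A total of 8 genes had a brightest probe set within 0.5 of the limit on the log2 scale, of which Myl3, Myo1f, Myo7b and Tnnt2 were above it and Myl4, Myl6b, Myo15b and Myo1h below. With 1 array their side of the limit has no error estimate.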

How the data were processed

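Biotin-labelled cRNA from total RNA of 1 wild-type sample was hybridised to an Affymetrix array. The deposited table holds 1 intensity for each of 45101 probe sets, made with affy and RMA, per the submitters' processing notes. Neither the versions nor the set of arrays normalized with it is given in the sources used here. The deposited values were whole numbers on a linear scale from 6 to 32341, whereas RMA usually returns log2 values; the step between is not stated. RMA compresses differences between low intensities.

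Probe sets were named through the platform annotation. Only probe sets with 1 symbol were used, and control probe sets stayed out of gene levels. A gene's level was its brightest probe set. The limit took the 95th percentile over 112 background genes with 126 probe sets, namely olfactory, vomeronasal and taste receptors and keratin-associated proteins, of which 7 exceed it by construction. Every member was named. Intensities of all probe sets are given for genes above the limit, except that genes with over 5 have the lowest, median and highest. Light chains, troponins and tropomodulins below the limit are given by their brightest values. Promoter sequences were taken from RefSeq. A planned comparison of actin proteins was not made.

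The genes, classes and lists were chosen with earlier results of these data known. The counting was tested on simulated data with a gap in intensity between genes above and below the limit. That test does not bear on genes near the limit. Depth does not apply to arrays, and a single array leaves the precision of each level unknown. An intensity threshold of 10000, the imperfect CArG box and the promoter split at the 99th percentile were added after the data were seen. The other settings tried were other percentiles, other background genes, the mean or lowest probe set, and removal of probe sets with marked identifiers. Tables were handled in pandas 2.3.3 and NumPy 2.4.6 under Python 3.11.15, and figures drawn with matplotlib 3.10.9.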

Additional observations from a re-analysis of the deposited data

Results flagged for a closer look

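A pair of probe sets shared by Myl6, an essential light chain of smooth muscle and non-muscle myosin, with Gm8894 and Gm5526 entered no count, because each carries 3 gene symbols. Their intensities were 13185 and 12352, above the background limit of 46.5. The probe set of Myl6 alone had 431. How much of the shared signal comes from each gene was not tested.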

How the results depend on the processing

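Each of 6 counts was recomputed under 8 alternatives. The count over all members ranged from 37 to 61 of 85, except that 75 genes were measured without the marked probe sets, and moved by less than 1.5 times in all 8. When a gene was represented by its lowest probe set, non-muscle genes above the limit fell to 13 of 20, smooth muscle genes to 6 of 10, unconventional myosins to 7 of 19 and regulators to 23 of 38, while 39.7% of all named genes were above it. This follows from probe sets of 1 gene on both sides of the limit. With the 99th percentile of background, a limit of 84.8, striated genes above it fell to 7 of 31. The remaining alternatives moved these 5 counts by less than 1.5 times. The smooth muscle count was the full number of measured genes in the 7 alternatives other than the lowest probe set. No replicate could be left out, since there is 1 array. No paired analysis was possible because there is 1 sample. Signal over background limits what can be said of genes near the limit, and rounding to whole numbers moves a value at the limit by 0.0156 on the log2 scale.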
